A study of Mus musculus with 12 samples.

Results

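Chemokine ligands and chemokine receptors of activated T cells were followed as a set of 8 genes: the ligand genes Xcl1, Ccl1, Ccl3, Ccl4 and Ccl5 and the receptor genes Cxcr3, Cxcr4 and Ccr8. Members were taken by gene symbol from a table of 32698 genes, and all 8 were among the 13196 genes with enough counts to be tested. RNA was sequenced from naive mouse CD4+ T cells stimulated in vitro through CD3 and CD28 by antibodies. The 4 groups, each of 3 libraries, were Keap1-knockout (KKO) cells after 48 h, wild-type (WT) cells after 48 h, KKO cells after 24 h and WT cells after 24 h of stimulation. Every group had received the same stimulation, and no unstimulated cells were analysed here. The allele or Cre driver behind the knockout, the age of the mice and whether replicates were separate mice or separate cultures are not stated in the labels, so p-values measure the spread between these libraries.

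Chemokines are small secreted proteins that steer leukocytes by binding receptors coupled to inhibitory G proteins. T cells make inflammatory chemokines soon after antigen receptor signalling, and exchange the receptors that hold them in lymph nodes for receptors that bring them into inflamed tissue. Keap1 hands the transcription factor NRF2 to the ubiquitin system, and NRF2 accumulates when Keap1 is missing.

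Libraries held 17.8 to 32.6 M (mega) counts. Keap1 itself, on mouse chromosome 9, averaged 21.1 ± 1.21 CPM (counts per M of scaled library total; SD, n = 3) in KKO cells and 126 ± 5.16 CPM in WT cells at 48 h, and 16.6 ± 0.906 CPM in KKO cells and 107 ± 1.48 CPM in WT cells at 24 h. The CD4 T cell markers (Cd3e, Cd3d, Cd3g, Cd4, Cd5, Lck and Cd28) summed to 2154 to 2391 CPM in KKO libraries and 2220 to 2339 CPM in WT libraries at 48 h, and to 2494 to 2551 CPM in KKO libraries and 2665 to 2766 CPM in WT libraries at 24 h, where every KKO library was lower and no single marker was called. KKO replicate 2 stood apart at 48 h, with Spearman's rho of 0.989 and 0.992 against the other 2 replicates of its group, against 0.996 between those. Sex-linked RNA also differed: Xist and Y-linked transcripts occurred together in a single KKO library at each time (replicate 3 at 48 h, replicate 1 at 24 h), while each of the other libraries held only 1 kind above 20 CPM. At 48 h KKO replicate 2 held Xist alone and KKO replicate 1 Y-linked RNA alone. WT replicates 1 and 2 held Xist alone and WT replicate 3 Y-linked RNA alone. KKO values for Xist alone at 48 h thus rest on replicate 2, so sex reading and that library cannot be told apart. Calls of members and counts of gene lists that change without these libraries are given both ways. Without KKO replicate 2 at 48 h, 2 of the 7 CD4 T cell markers were called lower at 24 h and 3 higher at 48 h. Of all tested genes 3.73% were then called at 24 h and 39.6% at 48 h.

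At 48 h the ligand and receptor members differed from WT in opposite directions. The ligand genes Xcl1, Ccl3, Ccl4 and Ccl5 were lower in KKO cells, by 4.56-fold, 1.97-fold, 1.73-fold and 1.68-fold. The receptor genes Cxcr4 and Ccr8 were higher, by 2.75-fold and 1.41-fold, and Ccl1 and Cxcr3 were not called. In all, 6 of 8 members passed an adjusted p of 0.05 (edgeR quasi-likelihood test, Benjamini-Hochberg over all tested genes), where 24.3% of all tested genes did. The 4 lower members compare with 11.9% of tested genes called lower, and the 2 higher ones with 12.4% called higher. For the same 6 members the 3 KKO libraries did not overlap the 3 WT libraries, as was the case for 33.2% of tested genes. In bulk RNA, fewer cells that express a gene and less RNA per cell cannot be told apart.

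**Figure D1:**
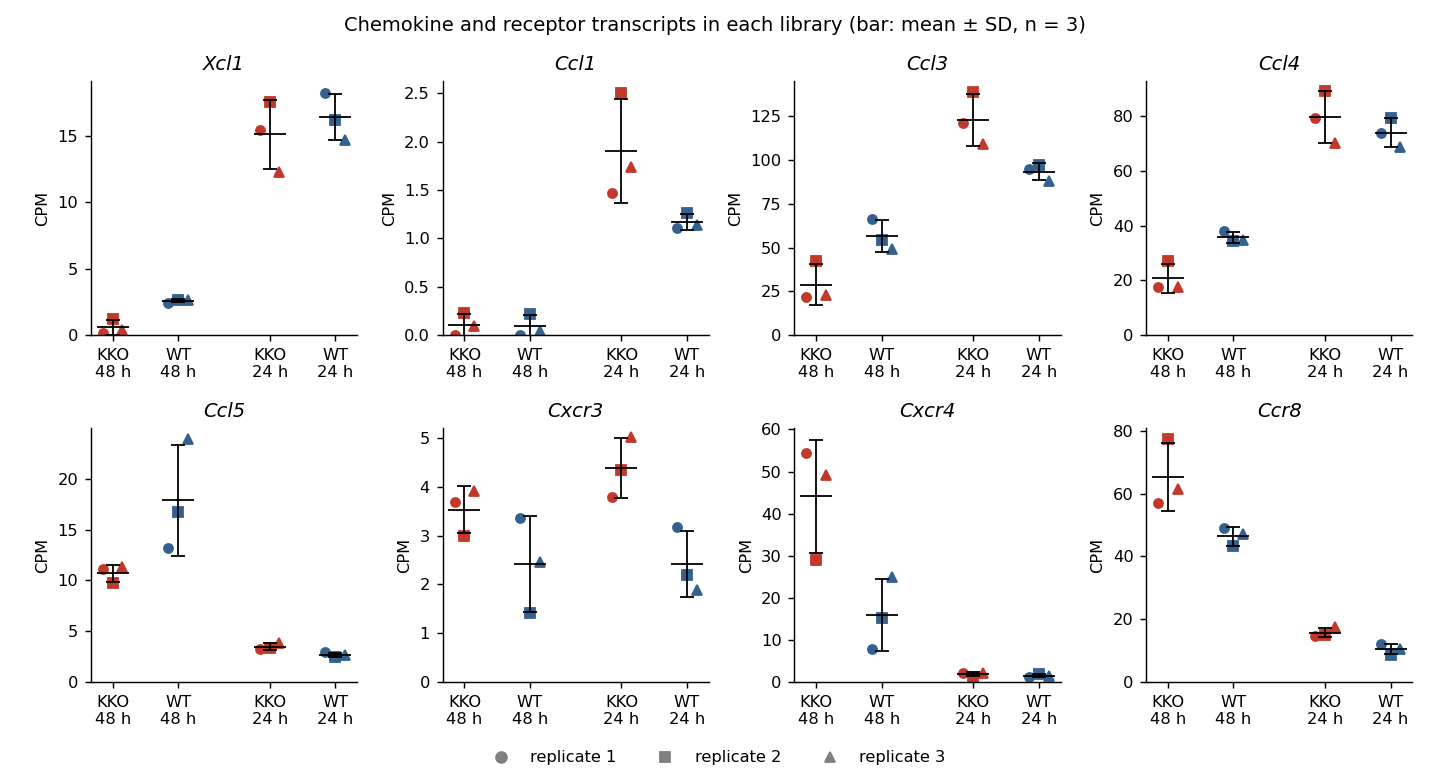
CPM of each member in each of the 12 libraries (y axis, linear from 0), with groups on the x axis as KKO and WT at 48 h and then KKO and WT at 24 h; symbols are replicates, and bars are mean ± SD of 3 libraries. The KKO libraries at 48 h lie below all WT libraries for Xcl1, Ccl3, Ccl4 and Ccl5 and above them for Cxcr4 and Ccr8.

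At 24 h only Ccr8 passed the test, 1.51-fold higher in KKO cells, so that 1 of 8 members was called against 2.33% of all tested genes (1.89% called higher and 0.432% lower). The KKO libraries lay above all WT libraries for 5 members (Ccl1, Ccl3, Ccl5, Cxcr3 and Ccr8), against 19.4% of tested genes whose groups did not overlap. The effects at the 2 times share no library. Their difference, tested as an interaction of genotype and time, was called for 4 of 8 members, against 4.18% of all tested genes (1.46% higher and 2.72% lower). These 4 were Xcl1, Ccl3, Ccl4 and Ccl5, all with a lower value for the Keap1 effect at 48 h than at 24 h.

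**Figure D2:**
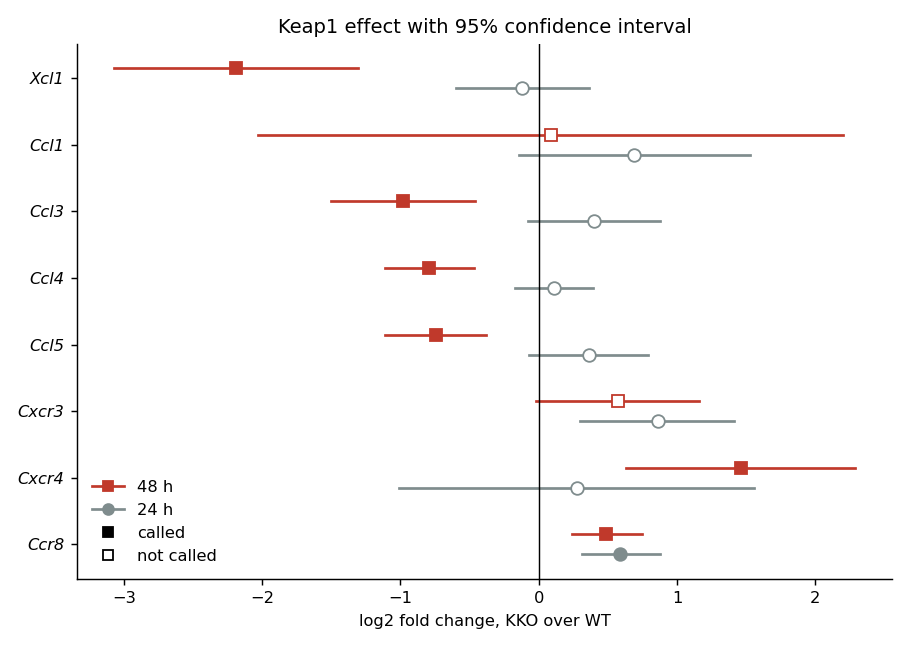
Log2 fold change of KKO over WT for each member (x axis) with its 95% confidence interval, at 48 h (red squares) and 24 h (grey circles); filled symbols were called. At 48 h the intervals of 4 ligand genes lie wholly below 0 and those of Cxcr4 and Ccr8 wholly above it.

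Promoter sequence was read for the 6 members that the RefSeq table (GRCm38.p6) holds, as the 250 bases before the annotated start. To show the start regions of genes that moved, the windows of the 5 members among them that were called in a genotype or time comparison are printed 5′ to 3′ on the gene's strand: Xcl1 at chr1:164935523-164935772 (minus strand), Ccl1 at chr11:82179813-82180062 (minus strand), Ccl3 at chr11:83649379-83649628 (minus strand), Cxcr4 at chr1:128592300-128592549 (minus strand) and Ccr8 at chr9:120091883-120092132 (plus strand). Capitals mark matches to the motifs searched on both strands.
Xcl1: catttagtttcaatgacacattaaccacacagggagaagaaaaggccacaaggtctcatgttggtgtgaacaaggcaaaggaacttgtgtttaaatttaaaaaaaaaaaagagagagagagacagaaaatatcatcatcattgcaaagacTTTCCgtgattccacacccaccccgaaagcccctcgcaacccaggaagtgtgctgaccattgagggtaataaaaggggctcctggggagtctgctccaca
Ccl1: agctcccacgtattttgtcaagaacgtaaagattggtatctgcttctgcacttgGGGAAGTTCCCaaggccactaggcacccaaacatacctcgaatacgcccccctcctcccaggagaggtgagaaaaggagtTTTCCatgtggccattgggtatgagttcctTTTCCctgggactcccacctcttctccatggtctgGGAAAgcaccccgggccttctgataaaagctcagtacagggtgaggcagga
Ccl3: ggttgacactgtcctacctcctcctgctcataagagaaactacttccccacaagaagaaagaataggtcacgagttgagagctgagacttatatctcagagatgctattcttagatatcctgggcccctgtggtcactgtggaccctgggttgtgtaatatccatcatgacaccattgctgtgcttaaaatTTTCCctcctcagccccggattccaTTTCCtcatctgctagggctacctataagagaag
Cxcr4: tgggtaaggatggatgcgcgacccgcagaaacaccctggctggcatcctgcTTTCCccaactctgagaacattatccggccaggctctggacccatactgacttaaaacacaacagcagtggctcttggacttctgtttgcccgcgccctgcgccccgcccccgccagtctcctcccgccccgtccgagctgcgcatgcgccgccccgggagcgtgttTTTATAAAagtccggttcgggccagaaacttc
Ccr8: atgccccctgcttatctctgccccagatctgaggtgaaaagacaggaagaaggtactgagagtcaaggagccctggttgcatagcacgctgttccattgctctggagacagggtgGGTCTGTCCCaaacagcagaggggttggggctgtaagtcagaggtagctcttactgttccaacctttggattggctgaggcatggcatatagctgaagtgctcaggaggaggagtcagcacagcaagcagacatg

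The core of the antioxidant response element, which NRF2 binds (TGACNNNGC), had no match in the 6 windows and was present in 10.2% of 32851 promoter windows of that length. The NFAT core GGAAA, bound by the calcium-driven factor of T cell receptor signalling, matched 1 time in Xcl1, 3 times in Ccl1, 2 times in Ccl3 and 1 time in Cxcr4, and was present in 55.6% of all windows. An NF-kB core (GGGA, any 4 bases, then CC) matched 2 times in Ccl1, as overlapping matches on opposite strands, and 1 time in Ccr8, and was present in 17.6% of all windows. The TATA box letters TATAAA matched Cxcr4 on both strands in overlapping positions, and were present in 12.4% of all windows. The AP-1 letters TGANTCA matched no member and 6.75% of all windows. A missing match says only that these letters were not in this window, and a match is no evidence of binding. The Cxcr3 window held none of the 5 motifs.

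Xcl1 encodes lymphotactin, the ligand of the dendritic cell receptor Xcr1, and lies on chromosome 1 (164931644 to 164935527, minus strand, mm10). At 48 h it had 0.147, 1.24 and 0.381 CPM in the KKO libraries, against 2.45, 2.65 and 2.66 CPM in the WT libraries. All KKO libraries were below all WT libraries, and the KKO counts behind these levels were 3, 22 and 8. On the log2 scale the KKO effect was -2.19 ± 0.41 (SE; adjusted p = 0.00284, edgeR). At 24 h the libraries overlapped, with 15.4, 17.5 and 12.3 CPM in KKO cells and 18.2, 16.2 and 14.7 CPM in WT cells. The fold change at 24 h was -0.12 on the log2 scale, with a 95% interval from -0.60 to 0.36.

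Xcl1 fell with time in both genotypes, 26.5-fold in KKO cells (log2 -4.73 ± 0.34; adjusted p = 9.72e-08, edgeR) and 6.32-fold in WT cells (log2 -2.66 ± 0.26; adjusted p = 2.29e-06, edgeR). The Keap1 effect at 48 h minus that at 24 h was -2.07 ± 0.47 on the log2 scale (adjusted p = 0.0298, edgeR). At 48 h the KKO effect was called in all 22 alternative analyses, from -3.27 without KKO replicate 2 to -1.72 without KKO replicate 1 on the log2 scale. Without KKO replicate 2, the fall with time in KKO cells was -5.81 on the same scale. Among libraries with Xist alone at 48 h, the log2 ratio of KKO over WT was -1.03 (1 and 2 libraries), the KKO library being replicate 2. Among libraries with Y-linked RNA alone it was -4.17 (1 and 1). The annotated gene Gm20743 overlaps Xcl1 and had 0 counts in every library.

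Ccl3 and Ccl4 encode inflammatory chemokines, also known as MIP-1 alpha and MIP-1 beta, and are neighbours on chromosome 11 (83647844 to 83649355, minus strand, and 83662584 to 83664683, plus strand). At 48 h Ccl3 had 21.5, 42.2 and 22.7 CPM in KKO libraries, against 66.5, 54.1 and 48.9 CPM in WT libraries. Ccl4 had 17.7, 26.9 and 17.5 CPM in KKO libraries, against 37.9, 34.3 and 34.8 CPM in WT libraries. For both genes KKO replicate 2 was the highest of the KKO libraries and still below every WT library. The log2 fold change was -0.98 ± 0.23 for Ccl3 (adjusted p = 0.0155, edgeR). It was -0.79 ± 0.15 for Ccl4 (adjusted p = 0.003, edgeR).

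At 24 h Ccl3 had 121, 139 and 109 CPM in KKO libraries, against 94.8, 97.3 and 88.2 CPM in WT libraries. Ccl4 had 79.3, 89.1 and 70.1 CPM in KKO libraries, against 73.7, 79.2 and 68.7 CPM in WT libraries. Ccl3 was thus higher in every KKO library, while Ccl4 overlapped, and neither passed the test. Their log2 fold changes at 24 h were 0.40 (95% interval -0.08 to 0.88) for Ccl3 and 0.11 (-0.17 to 0.39) for Ccl4. The Keap1 effect at 48 h minus that at 24 h was -1.38 ± 0.32 for Ccl3 (adjusted p = 0.0425, edgeR) and -0.90 ± 0.19 for Ccl4 (adjusted p = 0.0266, edgeR).

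With time, Ccl3 fell 4.31-fold in KKO cells and 1.66-fold in WT cells, and Ccl4 fell 3.86-fold in KKO cells and 2.07-fold in WT cells. The fall of Ccl3 in WT cells (log2 -0.73; adjusted p = 0.0155, edgeR) was not called without WT replicate 2 at 48 h (-0.69; adjusted p = 0.0508) or without WT replicate 3 at 48 h (-0.63; adjusted p = 0.066). The KKO effect on Ccl4 at 48 h was called in all 22 alternatives, from -1.03 to -0.68. That on Ccl3 was lost without WT replicate 1 (-0.85; adjusted p = 0.0635, edgeR), KKO replicate 1 (-0.80; 0.0733) or KKO replicate 3 (-0.83; 0.0629) at 48 h, and was -1.37 without KKO replicate 2. It was also lost when only the 6 libraries of that time were fitted (adjusted p = 0.054) and without the pair of libraries holding RNA of both sexes (-0.83; adjusted p = 0.0871). Within libraries with Xist alone (in KKO cells replicate 2) the log2 ratio at 48 h was -0.51 for Ccl3 and -0.43 for Ccl4. Within those with Y-linked RNA alone it was -1.19 and -0.97. The deposited Ccl3 value was not a whole number in 9 of 12 libraries, by up to 0.4 of a count, while those of the other 7 members were whole.

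Ccl5 encodes RANTES, an inflammatory chemokine that T cells make late after stimulation, and lies in the same cluster on chromosome 11 (83525778 to 83530518, minus strand). At 48 h it had 11.1, 9.73 and 11.3 CPM in KKO libraries, against 13.2, 16.7 and 23.9 CPM in WT libraries. The KKO libraries lay close together and below all WT libraries, which spread more widely. The log2 fold change was -0.74 ± 0.17 (adjusted p = 0.00665, edgeR). At 24 h Ccl5 had 3.25, 3.32 and 3.87 CPM in KKO libraries and 2.93, 2.52 and 2.68 CPM in WT libraries, without overlap. That difference was not called (log2 0.36, 95% interval -0.07 to 0.79).

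Unlike the other ligand members, Ccl5 rose with time, 3.08-fold in KKO cells (log2 1.62 ± 0.19; adjusted p = 2.5e-06, edgeR) and 6.63-fold in WT cells (log2 2.73 ± 0.19; adjusted p = 2.27e-08, edgeR). The Keap1 effect at 48 h minus that at 24 h was -1.11 ± 0.26 (adjusted p = 0.0315, edgeR). The 48 h effect was called in all 22 alternatives, from -0.92 to -0.49. Its log2 ratio was -0.62 within libraries with Xist alone (in KKO cells replicate 2) and -1.11 within those with Y-linked RNA alone.

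Ccl1 encodes the ligand of Ccr8 and lies on chromosome 11 (82176657 to 82305690, minus strand, in GENCODE). The promoter window printed above precedes the RefSeq start, which differs from the GENCODE start, and lies inside this span. At 48 h it was close to the detection limit, with 0, 4 and 2 counts in the KKO libraries and 0, 5 and 1 counts in the WT libraries. No difference was detectable at this depth (log2 0.09, 95% interval -2.03 to 2.20), and the sign turned to -0.93 without KKO replicate 2. At 24 h Ccl1 had 1.47, 2.5 and 1.74 CPM in KKO libraries, against 1.11, 1.26 and 1.14 CPM in WT libraries. The groups did not overlap, and the difference was not called (log2 0.69, 95% interval -0.14 to 1.53; adjusted p = 0.593, edgeR). Ccl1 fell with time 17.7-fold in KKO cells (log2 -4.15; adjusted p = 2.14e-05, edgeR) and 11.6-fold in WT cells (log2 -3.54; adjusted p = 0.000178, edgeR). These folds rest on few counts: the log2 values were -5.17 without KKO replicate 2 and -5.27 without WT replicate 2 at 48 h.

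All 4 calls for a difference of the Keap1 effect between times, those of Xcl1, Ccl3, Ccl4 and Ccl5, depended on single libraries. The value kept its sign in all 21 alternatives for each of them, from -3.16 to -1.60 for Xcl1, -1.77 to -1.20 for Ccl3, -1.14 to -0.79 for Ccl4 and -1.29 to -0.85 for Ccl5. The call of Xcl1 was lost in 10 alternatives, of Ccl3 in 12, of Ccl4 in 11 and of Ccl5 in 11, with adjusted p up to 0.186, 0.178, 0.139 and 0.122 (edgeR). All 4 calls were lost when WT replicate 2 or 3 at 24 h, KKO replicate 1 or 2 at 24 h, WT replicate 2 at 48 h, or KKO replicate 1 or 3 at 48 h was left out. Leaving out WT replicate 1 at 24 h ended those of Ccl3, Ccl4 and Ccl5, and WT replicate 1 at 48 h those of Xcl1, Ccl3 and Ccl4. Leaving out KKO replicate 3 at 24 h ended those of Ccl3 (-1.46; adjusted p = 0.0706) and Ccl5 (-1.03; adjusted p = 0.086). Without KKO replicate 1 at 48 h the values were -1.60 for Xcl1, -1.20 for Ccl3, -0.79 for Ccl4 and -1.13 for Ccl5.

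Summed markers of cytotoxic and innate lymphocytes, which are further sources of these ligands, were higher in KKO libraries at 48 h and at 24 h, while single genes went both ways. The 7 NK cell markers summed to 15.9 to 30.1 CPM in KKO libraries and 4.65 to 11.4 CPM in WT libraries at 48 h, mostly Gzma, the single one of 4 tested that was called higher (not called without the libraries holding RNA of both sexes, or without WT replicate 2, KKO replicate 1 or KKO replicate 3 at 48 h). Ncr1, a defining NK cell gene, averaged 0.116 CPM in KKO cells and 0.164 CPM in WT cells at 48 h. Cd8a and Cd8b1 summed to 12.7 to 13.4 CPM in KKO libraries and 8.32 to 10.6 CPM in WT libraries, and both were called higher. Neither was called without the libraries holding RNA of both sexes, and the call held in 8 of 22 alternatives for Cd8a (adjusted p = 0.0473, up to 0.191, edgeR) and in 16 of 22 for Cd8b1 (adjusted p = 0.0161, up to 0.0765). Markers of gamma-delta T cells and innate lymphoid cells summed to 7.69 to 16.2 CPM in KKO libraries and 4.68 to 5.88 CPM in WT libraries at 48 h. Of 3 tested, 2 were called higher, against 12.4% of all tested genes. At 24 h the NK cell markers summed to 8.5 to 12.5 CPM in KKO libraries and 3.5 to 8.18 CPM in WT libraries. Cd8a and Cd8b1 summed to 9.36 to 10.8 CPM in KKO and 7.03 to 8.1 CPM in WT libraries at 24 h. For the gamma-delta and innate lymphoid markers it was 13.8 to 15 and 11.1 to 13.1 CPM. Of these markers only Trdc, of the last list, was called higher at 24 h, against 1.89% of all tested genes. The part of these cells in the ligand levels was not tested.

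Cxcr4, the receptor for the homing chemokine Cxcl12, lies on chromosome 1 (128588199 to 128592293, minus strand). At 48 h it had 54.3, 29 and 49.2 CPM in KKO libraries, against 7.94, 15.2 and 24.9 CPM in WT libraries. The lowest KKO library, replicate 2, was close to the highest WT library, and the WT libraries differed widely among themselves. Its log2 fold change was 1.46 ± 0.37 (adjusted p = 0.0203, edgeR). At 24 h the groups overlapped at low levels, with 2.18, 1.31 and 2.21 CPM in KKO libraries and 1.32, 1.97 and 1.39 CPM in WT libraries. The value at 24 h was 0.28 on the log2 scale, with a 95% interval from -1.01 to 1.56.

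With time Cxcr4 rose 23.1-fold in KKO cells (log2 4.53 ± 0.46; adjusted p = 1.26e-05, edgeR) and 10.2-fold in WT cells (log2 3.35 ± 0.47; adjusted p = 0.000166, edgeR). The Keap1 effect was not shown to differ between the times (1.18 ± 0.68 on the log2 scale; adjusted p = 0.334, edgeR). At 48 h the KKO effect ranged from 1.14 to 1.91 with single libraries left out, and the call was lost without WT replicate 2 (1.41; adjusted p = 0.0594, edgeR), KKO replicate 1 (1.28; 0.0932) or KKO replicate 3 (1.37; 0.069). It was also lost when only that time's libraries were fitted (1.45; adjusted p = 0.068) and without the libraries holding RNA of both sexes (1.37; adjusted p = 0.0914). Within libraries with Xist alone (in KKO cells replicate 2) its log2 ratio was 1.32, and within those with Y-linked RNA alone it was 1.12.

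**Figure D3:**
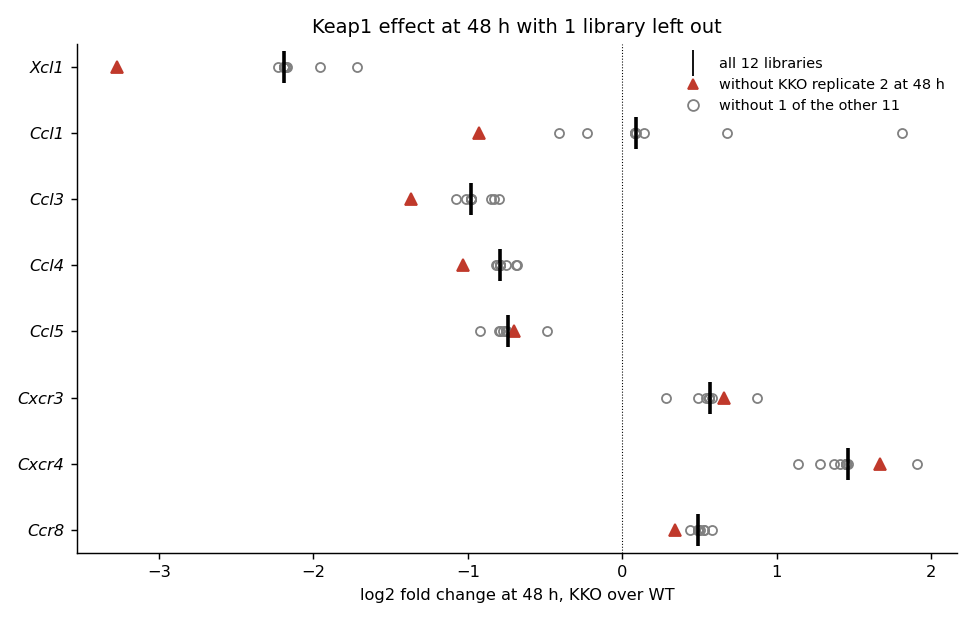
Log2 fold change of KKO over WT at 48 h for each member (x axis) from all 12 libraries (black bar) and with each library left out in turn (circles; red triangle without KKO replicate 2 at 48 h). The value for Xcl1 moves to -3.27 without that library, and Ccl1 is the only member whose values fall on both sides of 0.

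Ccr8, the receptor for Ccl1 found on Th2 cells and on activated regulatory T cells, lies on chromosome 9 (120092114 to 120094906, plus strand). At 48 h it had 57, 77.4 and 61.5 CPM in KKO libraries, against 49, 43.2 and 47 CPM in WT libraries. At 24 h it had 14.7, 15.1 and 17.5 CPM in KKO libraries, against 12, 8.78 and 10.6 CPM in WT libraries. Every KKO library was above every WT library at both times. The log2 fold change was 0.49 ± 0.12 at 48 h (adjusted p = 0.0103, edgeR). It was 0.59 ± 0.13 at 24 h (adjusted p = 0.0312, edgeR). The Keap1 effect did not differ detectably between times (-0.10, 95% interval -0.48 to 0.28).

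The 48 h call of Ccr8 was lost only without WT replicate 2 among the 22 alternatives (0.44; adjusted p = 0.0656, edgeR). The 24 h call was lost in 12 of them: with limma-voom (0.60; adjusted p = 0.0608), with no low-count filter, with replicate number as a block, without the libraries holding RNA of both sexes (0.64; adjusted p = 0.0954), and in 8 omissions of 1 library. Those were WT replicate 2 or 3, any KKO replicate at 24 h, or any WT replicate at 48 h, and the value stayed between 0.48 and 0.71 with adjusted p up to 0.191 (edgeR). With time, Ccr8 rose 4.13-fold in KKO cells (log2 2.05 ± 0.13; adjusted p = 1.28e-08, edgeR) and 4.43-fold in WT cells (log2 2.15 ± 0.13; adjusted p = 1.17e-08, edgeR).

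Cxcr3, the receptor for interferon-induced chemokines and a marker of Th1 cells, lies on chromosome X (101731535 to 101734269, minus strand). At 48 h it had 3.69, 3 and 3.91 CPM in KKO libraries, against 3.37, 1.41 and 2.47 CPM in WT libraries. At 24 h it had 3.79, 4.35 and 5.02 CPM in KKO libraries, against 3.18, 2.19 and 1.89 CPM in WT libraries. The groups overlapped at 48 h and did not at 24 h. The log2 fold change was 0.57 at 48 h (95% interval -0.02 to 1.16; adjusted p = 0.146, edgeR) and 0.86 at 24 h (0.30 to 1.41; adjusted p = 0.124, edgeR), so that neither was called. It was also the single member with no call over time, with log2 changes of -0.31 in KKO cells (95% interval -0.86 to 0.25) and -0.02 in WT cells (-0.60 to 0.57).

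Markers of B cells, which also carry chemokine receptors, were higher in KKO libraries. The 9 B cell genes summed to 48 to 74.5 CPM in KKO libraries and 24.3 to 34.7 CPM in WT libraries at 48 h, and to 48 to 67 CPM in KKO libraries and 24.5 to 30.2 CPM in WT libraries at 24 h. Of 8 tested, 7 were called higher at 48 h and 3 at 24 h, against 12.4% and 1.89% of all tested genes. Without the libraries holding RNA of both sexes the counts of markers were 5 and 0, and without KKO replicate 2 at 48 h they were 5 and 6. At 24 h DESeq2 called 7 and limma-voom 6. The 9 macrophage and monocyte markers summed to 4.35 to 8.01 CPM in KKO libraries and 2.5 to 4.08 CPM in WT libraries at 48 h. The mean sums were 6.59 CPM in KKO cells and 3.11 CPM in WT cells, nearly all of it Cd68. The single one tested, Cd68, averaged 6.28 CPM in KKO cells and 2.85 CPM in WT cells at 48 h (log2 1.14; adjusted p = 0.00408, edgeR) and was called in all 22 alternatives, while Fcgr1 and C1qb had 0 counts in every library. The part of these cells in the receptor levels was not tested.

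Over time, 7 of 8 members changed in KKO cells, where 67.8% of all tested genes were called, and 7 of 8 in WT cells, where 60.8% were. The direction was shared by both genotypes: Ccl5, Cxcr4 and Ccr8 rose (34.4% of genes were called higher in KKO and 31% in WT) and Xcl1, Ccl1, Ccl3 and Ccl4 fell (33.4% and 29.7% called lower). The 2 time courses share no library, but each shares its libraries with the genotype comparisons. The same 7 members did not overlap between 48 h and 24 h in either genotype, against 70.4% of tested genes in KKO cells and 68.4% in WT cells.

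Levels of different genes were set side by side as CPM per kilobase of the longest annotated transcript. In KKO cells at 48 h the order was Ccr8 (55.6), Ccl3 (37.6), Ccl4 (31.4), Cxcr4 (24.5) and Ccl5 (20.1), in which each neighbouring pair overlapped, followed by Cxcr3 (2.04), Xcl1 (1.13) and Ccl1 (0.175), in which Xcl1 overlapped both neighbours. In WT cells at 48 h the order was Ccl3 (73.8), Ccl4 (54), Ccr8 (39.5), Ccl5 (33.7), Cxcr4 (8.88), Xcl1 (4.94), Cxcr3 (1.4) and Ccl1 (0.146), with overlap between Ccr8 and Ccl5 and between Cxcr4 and Xcl1. A receptor gene thus led the set in KKO cells and a ligand gene in WT cells. The ranges of Ccr8 and Ccl3 overlapped over the KKO libraries at 48 h, replicate 2 being highest for both. Overlap here refers to such ranges, and genes were not compared within each library. In KKO cells at 24 h Ccl3 (161) and Ccl4 (120) were highest, followed by Xcl1 (28.8), Ccr8 (13.4), Ccl5 (6.55), Ccl1 (3.12), Cxcr3 (2.53) and Cxcr4 (1.05). The same order held in WT cells at 24 h, from Ccl3 (122) and Ccl4 (112) to Cxcr4 (0.865), with overlap between Ccl1 and Cxcr3 in both genotypes and between Ccl3 and Ccl4 in WT cells.

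**Figure D4:**
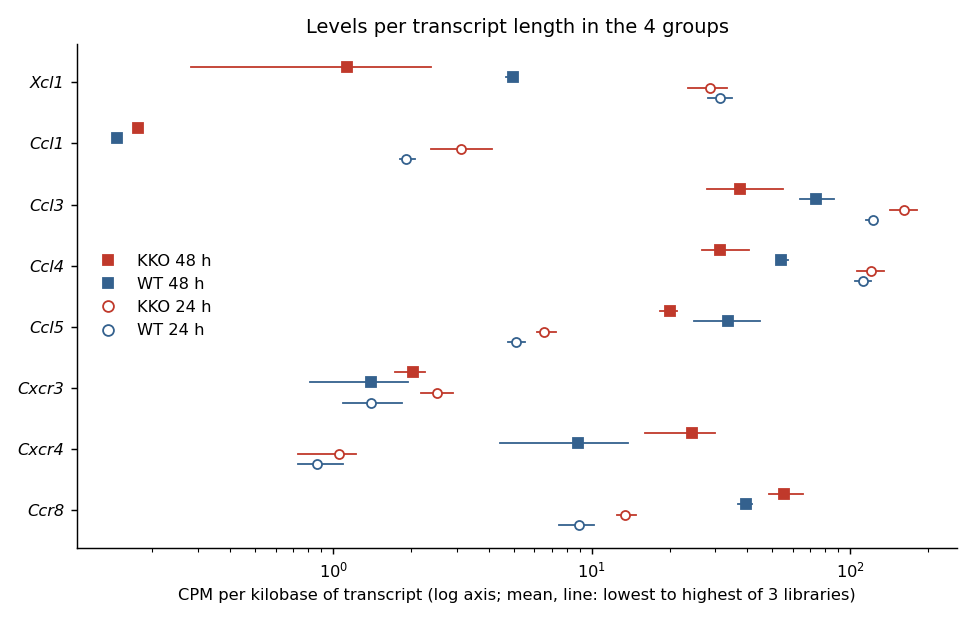
CPM per kilobase of transcript (x axis, log scale) of each member, as the mean of 3 libraries with a line from the lowest to the highest (no line for Ccl1 at 48 h, where a library had 0). Cxcr4 lies lowest of the set in both genotypes at 24 h and reaches 24.5 in KKO cells and 8.88 in WT cells at 48 h.

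For each member, 9952 tested genes averaging 2 CPM or more were ranked by the root mean square difference of log2 CPM, centred on each gene's mean, over the 12 libraries. Genes with predicted or clone-style symbols (such as Gm or Rik names) were left out, so nearest profiles are those among the remaining genes. The profile nearest to that of Ccl3 was Cdk5r1 (difference 0.12), followed by Ccl4 (0.17), and that nearest to Ccl4 was Rragb (0.15), followed by Shmt1 (0.15). Ccl5 was nearest to Stat2 (0.21) and Slfn5 (0.22), and Cxcr4 to Espn (0.23) and Plcxd1 (0.32). Ccr8 was nearest to Rnf19b (0.16) and Gas2l1 (0.20), and Cxcr3 to Plcg2 (0.30) and Myo1e (0.33). Xcl1 had no close match (Ak7 at 0.80 and Npas4 at 0.85), and neither had Ccl1 (Ak7 at 0.70 and Chd3os at 0.75). The median difference over all ranked genes lay between 0.56 for Cxcr3 and 2.10 for Xcl1. Many genes lay near some members: 130 were within 0.3 of Ccl4, 33 of Ccl3 and 28 of Ccr8. For Ccl5 there were 5, for Cxcr3 and Cxcr4 1 each, and for Xcl1 and Ccl1 0.

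The rest of the chemokine system was read in the same fit. Of 65 ligand and receptor genes looked for, 62 were in the table and 27 were tested, including the members; 8 had no count in any library, and the highest of the untested ones, Ccr3, reached 0.59 CPM. Of 14 tested ligand genes at 48 h, 0 were called higher and 5 lower, which are the 4 members named above and Cxcl10, with a median log2 fold change of 0.03 against -0.00 over all tested genes. Among all tested genes 12.4% were called higher and 11.9% lower. Without KKO replicate 2, 2 ligand genes were called higher and 5 lower, where 39.6% of all tested genes were called. Without the libraries holding RNA of both sexes 0 ligand genes were called higher and 4 lower, where 10.4% of all tested genes were called. Cxcl10, a ligand of Cxcr3, averaged 1.16 ± 0.0822 CPM in KKO cells and 3.83 ± 0.587 CPM in WT cells at 48 h (log2 -1.73; adjusted p = 0.00173, edgeR). At 24 h none of the 14 ligand genes was called by edgeR, DESeq2 or limma-voom, while 3 had an unadjusted p under 0.05 in edgeR.

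Of 13 tested receptor genes, 7 were called higher and 2 lower at 48 h (median log2 1.01), and 3 higher and 0 lower at 24 h (median log2 0.57). Among all tested genes 12.4% were called higher and 11.9% lower at 48 h, and 1.89% and 0.432% at 24 h. Besides the members, Ccr4, a receptor of Th2 and skin-homing cells, averaged 159 ± 9.37 CPM in KKO cells and 79 ± 4.23 CPM in WT cells at 48 h (log2 1.01; adjusted p = 3.45e-06, edgeR). Cxcr5, the follicular homing receptor, averaged 12 ± 0.284 CPM in KKO cells and 4.48 ± 0.922 CPM in WT cells at 48 h (log2 1.43; adjusted p = 6.59e-05, edgeR). Ccr7, the receptor that brings T cells into lymph nodes, was lower, at 614 ± 18.3 CPM in KKO cells and 859 ± 60.1 CPM in WT cells (log2 -0.48; adjusted p = 0.000361, edgeR). Ccr6 was also lower, at 1.11 ± 0.411 CPM in KKO cells and 3.96 ± 0.452 CPM in WT cells (log2 -1.85; adjusted p = 0.000556, edgeR). Xcr1, the receptor for Xcl1, had too few counts to test and reached at most 0.328 CPM. Without the libraries holding RNA of both sexes, 5 receptor genes were called higher and 2 lower at 48 h, and 1 higher at 24 h. Of all tested genes 10.4% and 0.799% were then called. Without KKO replicate 2 at 48 h, 10 of 14 tested receptor genes were higher and 2 lower at that time, where 39.6% of all tested genes were called.

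**Figure D5:**
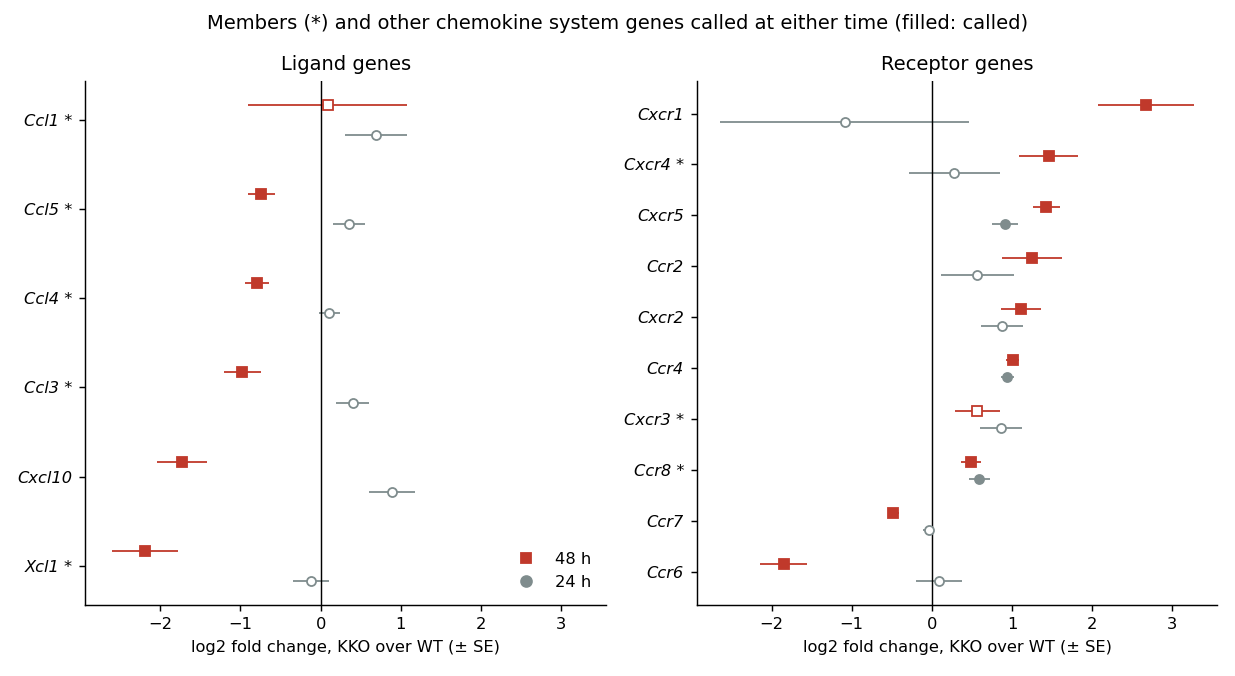
Log2 fold change of KKO over WT ± SE (x axis) of the members and of the other chemokine ligand and receptor genes called in KKO against WT at either time, at 48 h (red squares) and 24 h (grey circles), ordered by the 48 h value; filled symbols were called, and asterisks mark members. Called ligand genes lie to the left of 0, while 7 of 9 called receptor genes at 48 h lie to the right.

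Genes that act around the members were described by counts. Of 27 transcription factors known to act on T cell chemokine or receptor genes, 11 were called higher and 8 lower at 48 h (median log2 0.02), where 12.4% of all tested genes were called higher and 11.9% lower. Batf, an AP-1 family factor of effector T cells, averaged 91.4 CPM in KKO cells and 46.1 CPM in WT cells (log2 0.99; adjusted p = 3.31e-05, edgeR). Stat4, which carries interleukin-12 signals, averaged 141 CPM in KKO cells and 230 CPM in WT cells (log2 -0.71; adjusted p = 0.000209, edgeR), and Egr1, an early factor of receptor signalling, 102 CPM in KKO cells and 146 CPM in WT cells (log2 -0.52; adjusted p = 0.00012, edgeR). Gata3, the Th2 factor, was called higher at both times (log2 0.55 at 48 h and 0.91 at 24 h). Of 15 tested adhesion and egress receptors at 48 h, 3 were higher and 3 lower: S1pr1, the receptor for exit from lymph nodes, rose (log2 1.11; adjusted p = 0.00675, edgeR), while Cd69, which pulls S1pr1 from the surface, fell (log2 -1.06; adjusted p = 4.95e-06, edgeR). Of 33 tested genes of chemokine receptor signalling, 8 were higher and 4 lower, with Prex1, an activator of Rac proteins, at log2 0.76 (adjusted p = 0.000187, edgeR). Without the libraries holding RNA of both sexes, the counts at 48 h were 7 higher and 6 lower for the factors, 1 and 2 for the adhesion and egress receptors, and 5 and 1 for the signalling genes, where 10.4% of all tested genes were called. Without KKO replicate 2 at 48 h they were 12 and 10, 6 and 4, and 11 and 5, where 39.6% were called. Whether any of these genes bears on the members was not tested.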

How the data were processed

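Per the submitters' processing notes, FastQC and RSEM were used with mouse build mm10. The series' design text speaks of a human reference instead, but organism, symbols and column headers are murine. The RSEM version, the aligner and the annotation were not stated. The deposited values are expected counts per gene, which the authors did not normalise, and 10.8 to 12.7% of a library's values were not whole. Another 6 columns that no sample label describes were not used. A row named unknown (at most 2 counts) was left out, and 27 rows whose symbols had become dates kept those names.

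Expected counts were rounded, filtered with filterByExpr on the 4 groups and then passed to edgeR 4.0.16 (R 4.3.3; TMM, robust quasi-likelihood fit, 2-sided F tests). All 12 libraries entered the fit, with a mean for each group and 8 residual degrees of freedom. CPM used TMM-scaled library sizes. Calls were made at an adjusted p under 0.05 (Benjamini-Hochberg, 13196 genes). Intervals are at 95% and hold for 1 gene at a time. On simulated data the fit recovered 93% of 2-fold changes at 48 h, 93% at 24 h and 82% for the interaction, and 19%, 13% and 1% of 1.2-fold changes. The simulation changed 100 genes by each fold, all with more counts on average than Ccl1, while 3209 genes were called at 48 h in the data. Its recovery rates therefore do not carry over directly to the members.

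The members, the gene lists and the tests were chosen with earlier results of these data known. Beside the members, up to 4 genes per list with the smallest p at 48 h, and up to 2 further genes called at 24 h, could be named. Ccr3, Xcr1, Fcgr1, C1qb and Gm20743 were named outside this rule, with their values seen. Some genes of these lists are counted but not reported by name here. Transcript lengths and positions came from the GENCODE annotation of GRCm38, and promoter windows from RefSeq (GRCm38.p6), which held 6 of the 8 members.

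Same-numbered libraries deviated together across time in WT cells (r = 0.126, 0.103 and 0.343), over 0.1 in each pair, and in no other pair of groups did all pairs exceed 0.1. What the numbers mark is not stated in the labels. As alternatives the fit was repeated with DESeq2 1.42.0, limma-voom (limma 3.58.1), RLE or upper-quartile scaling, other low-count filters and thresholds, the compared libraries alone, a replicate block, each library left out, and both libraries with RNA of both sexes left out. The male share as a covariate was added after seeing the data.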

Additional observations from a re-analysis of the deposited data

Results flagged for a closer look

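Of 27 tested chemokine system genes, 7 were called in the test of genotype by time (edgeR, adjusted p under 0.05), against 4.18% of all tested genes. Without the libraries holding RNA of both sexes 0.403% of all tested genes were called. All 4 calls of members depended on single libraries, as described above. Given here is the Keap1 effect (log2 fold change of KKO over WT) at 48 h minus that at 24 h. The value was -2.07 for Xcl1, -1.38 for Ccl3, -0.90 for Ccl4 and -1.11 for Ccl5. Outside the members it was -2.62 for Cxcl10, -1.95 for Ccr6 and -0.44 for Ccr7. These calls were lost without the libraries holding RNA of both sexes, with adjusted p = 0.0703 for Cxcl10, 0.0983 for Ccr6 and 0.142 for Ccr7 (edgeR). With single libraries left out, the call of Ccr6 was also lost without WT replicate 3 or KKO replicate 2 at 24 h and WT replicate 2, KKO replicate 1 or KKO replicate 3 at 48 h. That of Ccr7 was lost without WT replicate 3 or KKO replicate 1 at 24 h and WT replicate 2 or KKO replicate 3 at 48 h. In each case the effect at 48 h was below 0, while that at 24 h was not called.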

How the results depend on the processing

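The self-test on simulated data recovered few 1.2-fold changes, so small differences of the members may have gone uncalled at this depth and with 3 libraries a group. Its setting differed from the data, as described above. The few Ccl1 counts at 48 h allow no direction. The count of called members for KKO against WT at 24 h, 1 with all libraries, was 0 at an adjusted p under 0.01, with at least a 2-fold change, with no low-count filter, with limma-voom, with the replicate block and without the libraries holding RNA of both sexes, and 0 to 1 with single libraries left out. At 48 h the count of 6 was 3 at an adjusted p under 0.01 and 2 with at least a 2-fold change, and 4 to 6 with single libraries left out. Without the libraries holding RNA of both sexes 1 member was called higher and 3 lower at 48 h. For the interaction the count of 4 was 0 at an adjusted p under 0.01, 1 with no low-count filter, 0 without the libraries holding RNA of both sexes, and 0 to 4 with single libraries left out. Shares of all tested genes under the other thresholds, filters and methods are not given here, so these counts cannot be set against them. For 48 h against 24 h it stayed at 7 in KKO cells and at 6 to 7 in WT cells. The cause was not tested.

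Signs reversed only for differences that were never called. For KKO against WT at 24 h the value for Xcl1 ran from -0.25 to 0.01 with single libraries left out, highest without KKO replicate 3 at 24 h, and that of Cxcr4 was -0.01 with the male share as a covariate. At 48 h that of Ccl1 ran from -0.93 to 1.81, with -0.41 without WT replicate 1, -0.23 without WT replicate 3 and -0.93 without KKO replicate 2. The interaction ran from -1.63 to 1.11 for Ccl1 (highest without WT replicate 2 at 48 h), -0.58 to 0.01 for Cxcr3 (highest without WT replicate 1 at 48 h) and -0.26 to 0.01 for Ccr8 (highest without WT replicate 2 at 24 h). For Cxcr3 over time in WT cells the range was -0.32 to 0.27, with 0.00 with the stricter low-count filter, 0.23 without WT replicate 1 at 24 h and 0.27 without WT replicate 2 at 48 h. The cause was not tested. With the replicate number as a block, Ccr8 at 24 h lost its call (0.59; adjusted p = 0.0582, edgeR), and no other call of a member changed.

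The share of all tested genes called moved as well. With single libraries left out it ran from 10.4% (without KKO replicate 1 at 48 h) to 39.6% (without KKO replicate 2 at 48 h) for KKO against WT at 48 h, against 24.3% with all libraries. It ran from 0.983% (without KKO replicate 3 at 24 h) to 3.73% (without KKO replicate 2 at 48 h) at 24 h, against 2.33%, and from 1.06% (without WT replicate 2 at 48 h) to 23.8% (without KKO replicate 2 at 48 h) for the interaction, against 4.18%. Without the libraries holding RNA of both sexes it was 10.4% at 48 h, 0.799% at 24 h and 0.403% for the interaction.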

Other observations

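Genes of the T helper states in which the receptor members are known were read in the same fit at 48 h. In KKO cells 7 of 11 tested Th2 effectors rose and 0 fell (edgeR; median log2 fold change 0.81), against 12.4% of all tested genes called higher and 11.9% called lower. Il13, a cytokine of Th2 cells, averaged 17.1 ± 1.86 CPM in KKO cells and 3.78 ± 0.234 CPM in WT cells (SD, n = 3 each; log2 2.18; adjusted p = 2.26e-06, edgeR). The list also holds Ccr4 and Gata3, which are described above. Of 13 tested genes of regulatory T cells, 6 were called higher and 0 lower (median log2 0.51), and 2 higher without the libraries holding RNA of both sexes. Il2ra, the interleukin-2 receptor alpha chain that all activated T cells also carry, averaged 1829 ± 199 CPM in KKO cells and 1135 ± 42.9 CPM in WT cells (log2 0.69; adjusted p = 6.81e-05, edgeR). Of 12 tested Th1 and cytotoxic effector genes, 4 were called higher and 3 lower (median log2 -0.02), and 1 higher and 2 lower without those libraries. Tnf, an inflammatory cytokine, was among the lower ones, at 34.2 ± 4.8 CPM in KKO cells and 53.1 ± 3.3 CPM in WT cells (log2 -0.64; adjusted p = 0.00042, edgeR). Prf1, the pore-forming protein of cytotoxic cells, was among the higher ones, at 16 ± 2.65 CPM in KKO cells and 6.41 ± 2.37 CPM in WT cells (log2 1.33; adjusted p = 0.00496, edgeR). Without KKO replicate 2, 7 Th2 effectors, 9 regulatory T cell genes and 3 Th1 and cytotoxic effectors were called higher, and 0, 0 and 4 lower. Of all tested genes 39.6% were then called, and 10.4% without the libraries holding RNA of both sexes. Whether the receptor levels move with these lists within a library was not tested.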
